A study of Mus musculus and synthetic construct with 30 samples.

Results

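Tiles across the cytomegalovirus (CMV) promoter and scrambled copies of that promoter served as strong and background elements in a massively parallel reporter assay (MPRA). The members were the rows of the oligo annotation whose name starts with CMV, split by whether the name marks a scrambled copy. They numbered 70 of the 1196 oligos in the annotation rows analysed here, with 45 oligos in 9 CMV tiles and 25 oligos in 5 scrambled tiles. Each tile is 90 bases long and was ordered with 5 barcodes, which are tags of 10 bases that are transcribed with the reporter. The count table held 23420 barcodes. Of the 70 members, 63 had at least 10 counts in at least 3 of the DNA libraries and entered the comparisons. These were 43 CMV and 20 scrambled barcodes.

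The assay used C2C12, a mouse myoblast cell line. Each tile stood upstream of a minimal promoter and GFP on a plasmid, and the plasmid pool was delivered by lipofection, so the elements were read outside the chromosomes and in 1 cell line only. RNA was counted in 5 libraries of transfected cells (labelled A_1, A_2, B_1, B_2 and B_3) and vector DNA in 5 libraries (A_1, A_2, A_3, B_1 and B_2). The study drew the RNA from cells at more than 1 passage and made the DNA libraries on more than 1 day, but the sources used here do not say whether the letters A and B mark these. P-values measure the spread between these libraries, which may be partly technical. RNA libraries held 18725458 to 35098552 counts and DNA libraries 9846269 to 24602523. Activity is the log2 ratio of RNA to DNA counts after each library was divided by its median barcode count, so 0 is close to the level of a typical barcode in the pool, whose median was 0.02.

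The immediate-early promoter of human cytomegalovirus is among the strongest promoters known in mammalian cells and drives many expression vectors. Its enhancer carries repeated short elements that bind CREB/ATF, NF-kappaB, AP-1 and SP1 family factors of the host cell, and a core promoter with a TATA box lies downstream of it. An enhancer is a stretch of DNA that raises transcription from a promoter placed nearby. In the assay used here a piece of the promoter can act only by raising transcription from the minimal promoter beside it, or by starting transcription itself.

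The scrambled tiles carry the comparison, because they give the activity of sequences of the same length with no designed element. The study tiled 5 scrambled versions of the promoter. The 5 scrambled tiles in the annotation rows analysed here are only part of that set, and stand at places 6, 8 and 9 of the tiling only. The sequences of these 5 tiles are shown here. Capitals mark a match, on either strand, to any of the 7 motifs that were searched and are spelled out below. The first number is that of the scrambled copy, and the second is the place of the tile in the tiling.
scrambled copy 1 tile 6: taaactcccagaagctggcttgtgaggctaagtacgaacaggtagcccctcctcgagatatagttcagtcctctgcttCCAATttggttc
scrambled copy 3 tile 6: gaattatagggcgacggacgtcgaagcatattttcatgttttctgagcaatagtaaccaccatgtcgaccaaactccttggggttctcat
scrambled copy 3 tile 9: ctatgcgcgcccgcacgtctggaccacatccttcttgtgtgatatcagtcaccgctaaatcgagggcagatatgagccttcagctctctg
scrambled copy 4 tile 6: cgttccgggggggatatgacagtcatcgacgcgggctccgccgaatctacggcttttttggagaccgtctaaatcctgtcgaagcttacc
scrambled copy 5 tile 8: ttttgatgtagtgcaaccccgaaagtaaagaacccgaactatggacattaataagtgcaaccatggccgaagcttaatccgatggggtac

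The scrambled tiles are designed and have no place in a genome. Their G and C content ran from 44.4% to 56.7%, against 43.3% to 54.4% in the CMV tiles. The CMV tiles are viral sequence, are not given here letter by letter, and are placed by their position in the tiled stretch, counted from 1. Tile 1 covers bases 1 to 90 and tile 9 covers bases 393 to 482, each tile starts 49 bases after the one before, and all 8 neighbouring pairs share 41 identical bases.

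The 9 CMV tiles formed a profile with high activity at both ends and low activity in the middle. Tile 2 (bases 50 to 139) was the most active at a log2 ratio of 3.70 ± 0.22 (SE, 5 RNA and 5 DNA libraries), a 12.96-fold excess of RNA. Tile 1 followed at 2.95 ± 0.05 and tile 9 at 2.72 ± 0.11. Of the 229 annotated tiles of all designs that kept a barcode, these took the ranks 1, 2 and 3. Tile 3 (bases 99 to 188) reached 1.31 ± 0.05 and tile 8 (bases 344 to 433) reached 1.19 ± 0.10. Tiles 4, 5, 6 and 7, which cover bases 148 to 384, lay between 0.63 and 0.73, or 1.55-fold to 1.66-fold. These values come from the summed counts of a tile's barcodes, fitted with edgeR's quasi-likelihood test over all 229 tiles.

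A tile or barcode was called active where its log2 ratio exceeded 1 and its Benjamini-Hochberg adjusted p was under 0.01. By this rule 5 of 9 CMV tiles (1, 2, 3, 8 and 9) and 0 of 5 scrambled tiles were active, against 4.8% of all annotated tiles tested. At the level of single barcodes 25 of 43 CMV barcodes were active, against 4.19% of all 16285 barcodes tested. All 14 barcodes of tiles 1, 2 and 9 were among them, and 4 of the 19 barcodes of tiles 4 to 7. Tiles 4 to 7 lay above the median of all barcodes, 0.02, but in summed counts scrambled copy 1 tile 6 lay at their level, at 0.69. Over all CMV tiles, all 43 barcodes had a log2 ratio above 0, the lowest at 0.13, as did 12 of 20 scrambled barcodes. Scaling by total counts instead of the median lowered the median of all barcodes by 0.60 on the log2 scale and left 3 active CMV tiles, while the 9 CMV tiles relative to that median stayed between 0.61 and 3.67. On that scale scrambled copies 3 and 4 of tile 6, above 0 with the median scale, fell below 0 (-0.34 and -0.30), and so did 8 of the 43 CMV barcodes, the lowest at -0.46.

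Per library, tile 1 gave log2 ratios of 2.93 and 2.78 in the A libraries of RNA, and 2.999, 2.97 and 3.06 in the B libraries, each set against the mean of the 5 DNA libraries. Every B library was above both A libraries, with A_1 and B_2 nearly level. Tile 2 gave 2.97 and 2.79 in the A libraries, and 4.10, 4.01 and 4.08 in the B libraries. The letters did not overlap in tile 2, and in the A libraries tile 2 stood level with tile 1. The 5 DNA libraries stayed within 0.09 of their mean for tile 2.

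Tile 9 gave 2.44 and 2.30 in the A libraries, and 2.94, 2.85 and 2.95 in the B libraries. Tile 8 gave 0.94 and 0.74 in A, and 1.38, 1.41 and 1.36 in B. In both tiles every B library was above every A library. Tile 3 gave 1.26, 1.15, 1.48, 1.31 and 1.36 in the order A_1, A_2, B_1, B_2 and B_3, also with no overlap but with A_1 and B_2 close. The 5 values ran from 0.61 to 0.81 in tile 4, from 0.56 to 0.68 in tile 5, from 0.62 to 0.71 in tile 6 and from 0.62 to 0.80 in tile 7. The letters overlapped in tiles 4, 6 and 7, and did not in tile 5.

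The letters of the RNA and DNA libraries need not mark the same thing. The difference between letters was tested as the interaction of library type and letter in edgeR, a test added after these values had been seen. Its error comes from the spread between libraries within a letter. The p-values therefore do not cover how far other sets of A and B libraries would differ. Tile 2 had a 2.27-fold higher ratio of RNA to DNA in B than in A (log2 difference 1.19 ± 0.07, SE, adjusted p = 6.8e-17 over all tiles). Tile 9 was 1.52-fold higher (0.61 ± 0.06, adjusted p = 1.7e-09) and tile 8 was 1.45-fold higher (0.53 ± 0.07, adjusted p = 1.69e-07). Across all 229 tiles, 2.18% were called higher in B at an adjusted p under 0.05, which were these 3 CMV tiles and 2 tiles of other designs, and 3 tiles of other designs were called lower. Tile 1, which shares bases 50 to 90 with tile 2, did not pass (0.12 ± 0.06, adjusted p = 0.295). Tile 3, which shares bases 99 to 139 with tile 2, did not pass either (0.10 ± 0.06, adjusted p = 0.448). The 8 bases from 91 to 98 are in tile 2 and in no other tile. The tiles also differ in which bases they join, in the distance of shared bases from the minimal promoter and in their barcodes. Which of these the difference follows was not tested. No scrambled tile passed, with adjusted p of 0.42 or higher.

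In tile 2 the difference was also called in single barcodes. Their counts make up the tile's summed count in the same libraries, so they are no separate test of the difference. All 5 were called higher in B, with log2 differences from 1.03 to 1.22, against 0.301% of all barcodes called higher in B. In tile 9, 4 of 5 barcodes were called, and in tile 8, 2 of 5. These 11 were the only CMV barcodes called, and the count ran from 8 to 11 when any 1 library was left out. A scrambled barcode of copy 3 tile 9, CGTGGTATTG, was also called; it held 1 and 5 RNA counts in the A libraries and 116, 39 and 61 in the B libraries. What differed between the A and B libraries besides the letter cannot be told apart here.

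CTTCACAGAT, the most active barcode of tile 2 and of all CMV barcodes, shows the raw values. It held 31695 and 21023 RNA counts in the A libraries and 96074, 54498 and 60839 in the B libraries. In units of the library's median barcode these were 49.9 and 43.3 in A, and 109, 102 and 107 in B. Its DNA stood at 5.42 to 6.22 median barcodes in all 5 DNA libraries. The log2 ratio was 3.82 ± 0.17 (SE, adjusted p = 6.49e-18), rank 43 of 16285 barcodes. The least active barcode of tile 2, CGAGTATGGG, was at 3.08 ± 0.17, and its RNA stood at 5.21 and 4.86 median barcodes in A against 11.4, 11.1 and 11.5 in B.

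Neighbouring tiles share 41 bases and differ in the other 49, in how far the shared bases lie from the minimal promoter, and in their barcodes; which of these a difference follows was not tested. The difference was taken within each library from the mean log2 count of the kept barcodes (pseudocount 0.5 counts) and compared between RNA and DNA libraries with a two-sided exact permutation test. The smallest p that 5 against 5 libraries can give is 0.00794, and p-values were adjusted over 17 comparisons, 8 of neighbours and 9 against the scrambled tiles. Of the 8 neighbouring pairs, 4 passed 0.05. These p-values cover the libraries and not the spread between barcodes.

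The steepest step was from tile 2 to tile 3, where the log2 ratio was 2.38 ± 0.26 higher in tile 2 (SE, exact permutation p = 0.00794, adjusted p = 0.0104). It was 1.74 within the A libraries and 2.82 within the B libraries. At the other end tile 8 was 1.26 ± 0.06 below tile 9 (exact permutation p = 0.00794, adjusted p = 0.0104), with -1.32 within A and -1.23 within B. Tile 3 was 0.29 ± 0.04 above tile 4 at the same p. This value was 0.58 with summed counts and 0.17 without barcodes that are 1 base from a barcode richer in RNA. The difference was -0.69 with the median over barcodes of each library's levels, where RNA and DNA medians can come from different barcodes. With the median over barcodes of the log2 ratio tile 3 (1.14) stayed above tile 4 (0.65). Among these settings only the median of levels reversed the direction. Tile 4 was 0.21 ± 0.04 above tile 5, also at the same p, with 0.10 for summed counts and 0.83 for the median of levels. With the median over barcodes of the log2 ratio tile 4 (0.65) was below tile 5 (0.74), so this direction depends on how barcodes are joined. With 2 or 3 libraries a side, the smallest p within a letter is 0.1.

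The other 4 neighbouring pairs did not pass. Tile 1 was 0.45 ± 0.25 below tile 2 (exact permutation p = 0.167, adjusted p = 0.167). That mean joined a difference of 0.18 in favour of tile 1 within the A libraries and one of -0.89 within the B libraries. With summed counts these were -0.01 within A and -1.08 within B, and -0.64 over all libraries. The median over barcodes of each library's levels gave 0.06 over all libraries. Tile 7 was 0.39 ± 0.15 below tile 8 (exact permutation p = 0.0476, adjusted p = 0.0578), at -0.01 within A and -0.68 within B. It passed when RNA library A_1 (-0.46) or A_2 (-0.47) was left out, with the median over barcodes (-1.03) and with summed counts (-0.46), and was -0.08 without barcodes that have a neighbour richer in RNA. Tiles 5 and 6 differed by -0.13 ± 0.07 (exact permutation p = 0.0794, adjusted p = 0.0843), which passed without RNA library B_3 (-0.17) and with the median over barcodes (-0.36), and was -0.04 with summed counts. Tiles 6 and 7 differed by -0.08 ± 0.04 (exact permutation p = 0.0714, adjusted p = 0.081), which passed without RNA library B_2 (-0.10) and without barcodes that have a richer neighbour (-0.24), and was -0.03 with summed counts.

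Each of the 9 CMV tiles was above the mean of the 5 scrambled tiles in every RNA library relative to every DNA library (exact permutation p = 0.00794 and adjusted p = 0.0104 for each). The excess ran from 0.54 ± 0.12 in tile 5 to 3.42 ± 0.23 in tile 2. For tile 5 it was 0.69 within the A libraries and 0.45 within the B libraries. The A value rests on RNA library A_1, which gave 0.99 against the A libraries of DNA while A_2 gave 0.38, and B_1, B_2 and B_3 gave 0.49, 0.36 and 0.50 against those of B. In A_1 the scrambled barcodes ACCCTTACGT and CGTGGTATTG held 0 and 1 RNA counts. The excess of tile 5 over all libraries was 0.43 without A_1 and 0.13 with the median over barcodes of each library's levels, and on that median tile 3 had 0.27 in place of 1.04. In that setting the RNA and DNA medians of a tile can come from different barcodes. With the median over barcodes of the log2 ratio tile 5 was at 0.74 and tile 3 at 1.14. The scrambled tiles ran from -0.37 to 0.44 by the same measure. The scrambled tiles themselves were not alike. Copy 1 tile 6 stood at a log2 ratio of 0.69 ± 0.04 (SE), inside the range of 0.63 to 0.73 of CMV tiles 4 to 7. Copy 4 tile 6 was at 0.30 ± 0.03, copy 3 tile 6 at 0.26 ± 0.08, copy 5 tile 8 at -0.12 ± 0.06 and copy 3 tile 9 at -0.12 ± 0.03. CMV tiles 4 (0.73) and 7 (0.71) were above copy 1 tile 6 in summed counts, and tiles 5 (0.63) and 6 (0.67) were below it. With the median over barcodes of the log2 ratio copy 1 tile 6 was at 0.44 and tiles 4 to 7 at 0.60 to 0.80, all above it.

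In single libraries copy 1 tile 6 gave log2 ratios of 0.62, 0.71, 0.75, 0.62 and 0.72 in the order A_1, A_2, B_1, B_2 and B_3. CMV tile 6, at the same place of the tiling, gave 0.71, 0.68, 0.65, 0.69 and 0.62. The ranges of these tiles overlapped in summed counts. Copy 3 tile 9 gave -0.02, -0.12, -0.18, -0.12 and -0.19, below 0 in all 5, where CMV tile 9 was above 2 in all 5. Copy 3 tile 6 rests on 1 barcode, GTGCCACTAC.

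The spread between the barcodes of a tile was larger than the spread between libraries in most tiles. The SD of the log2 ratio between barcodes had a median of 0.37 over the 9 CMV tiles, and the SD of a CMV barcode's log2 RNA level over the 5 RNA libraries had a median of 0.14. The barcode SD was above the median library SD in 8 of 9 CMV tiles. Tile 2 was the exception, at 0.29 between barcodes and 0.64 between libraries. Barcodes of a tile share its whole sequence, so these values describe the assay and were not tested.

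Of the CMV tiles, tile 1 was the tightest, with 4 barcodes from 2.73 (GGCCTATTTT) to 3.22 (AGAAATGTTC). Tile 9 was the widest CMV tile, with an SD of 0.67, and scrambled copy 4 tile 6 was as wide at 0.68. The highest barcode of CMV tile 9, GCGTCTAAAC, was at 2.88 ± 0.09 (SE) and the lowest of that tile, ATAGGCCGGC, at 1.32 ± 0.12. The RNA of ATAGGCCGGC was 1.56, 1.32, 2.04, 2.12 and 2.07 median barcodes, against 8.18, 7.67, 11.4, 10.8 and 11.3 for GCGTCTAAAC, while their DNA stood at 0.586 to 0.883 and 1.24 to 1.45. The DNA of ATAGGCCGGC was 0.795, 0.798 and 0.883 in the A libraries and 0.586 and 0.629 in the B libraries, so DNA also enters its difference between letters. The RNA of the 2 barcodes did not overlap in any RNA library, yet for both it was higher in every B library than in either A library.

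The inner tiles held both active and inactive barcodes. Tile 3 ran from 0.36 (CAATCGGCGT) to 1.47 (CCACCGTATT) with 4 of 5 active. Tile 4 ran from 0.33 (TTACGGAACG) to 1.43 (GATTAACGAT) with 2 of 5 active. Tile 5 ran from 0.21 (TTGTCTTACG) to 0.76 (AAACGTCGTC) and was the one CMV tile with no active barcode; its 5 barcodes lay above 0.

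Tile 6 ran from 0.13 (GCGTTTAGTT) to 1.08 (CCTTTACGAC) with 1 of 5 active, and that barcode fell to 0.96 when RNA library A_1 was left out. Tile 7 ran from 0.47 (AGTCGCTAGT) to 1.495 (GCAGATCCGG) with 1 of 4 active. Tile 8 ran from 0.80 (GATGGACTCG) to 1.66 (ATCAAACGCG) with 3 of 5 active. The most active barcodes of tiles 3, 4, 7 and 8 thus reached the level of the least active barcode of tile 9.

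Among the 20 scrambled barcodes 1 (5.0%) was active, a share near the 4.19% of all barcodes. It was TAACAGAAAC of copy 4 tile 6, at 1.34 ± 0.13 (SE, edgeR adjusted p = 5.39e-10). It held 679 and 599 RNA counts in A and 1600, 576 and 765 in B, with 164 to 544 DNA counts. The other 4 barcodes of the same 90 bases lay between -0.55 and 0.37, so the high value belonged to 1 barcode of the tile. CCCGGCAGTT of copy 1 tile 6 lay just under the minimum at 0.98 and passed it (1.01) without RNA library B_2; it was chosen for mention after its value was seen.

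With no minimum on the ratio, 7 of 20 scrambled barcodes were higher in RNA at an adjusted p under 0.01 in edgeR, against 23.4% of all barcodes, and 3 were lower, against 19.2%. By the full rule in the downward direction (log2 ratio below -1) edgeR called 0 of 63 members, against 2.14% of all barcodes, and DESeq2 also called 0. At an unadjusted p under 0.05, 5 members were lower in RNA, against 27.5% of all barcodes. All 8 members with a ratio below 0 were scrambled barcodes.

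The members differed widely in how many plasmids carried them. DNA counts summed over the 5 libraries ran from 397 to 35465 in the kept CMV barcodes, an 89.3-fold span, and from 218 to 95407 in the kept scrambled barcodes. CACGGCCATC, a barcode of scrambled copy 4 tile 6, had the highest DNA count of the whole table in each of the 5 DNA libraries, with 12288, 19829, 11269, 26435 and 25586 counts. Its log2 ratio was 0.37 ± 0.04, and its RNA level varied little, with an SD of 0.02 over the RNA libraries. At the other end ACCCTTACGT of copy 5 tile 8 held 28 to 60 DNA counts and 0, 20, 26, 18 and 58 RNA counts, and its RNA level had an SD of 2.72.

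CMV barcodes took 0.366% to 0.373% of all counts in DNA and 0.782% to 1.13% in RNA. Tile 2 took 0.0324% to 0.0365% of DNA counts. It took 0.183% and 0.162% of RNA counts in the A libraries and 0.386%, 0.364% and 0.389% in the B libraries. The A and B libraries did not overlap in this share.

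The 7 members under the count minimum were nearly absent from the DNA libraries. They were CCTTTCGACG of CMV tile 1, AGTCGCTAGC of CMV tile 7, AACGCGCCGT of copy 5 tile 8, and ACTCCACAGG, TGCCGACGTG, TGCCGACGTT and TTTACCGTAT of copy 3 tile 6. None had more than 3 DNA counts in any library. AGTCGCTAGC still held 9, 13 and 7 RNA counts in the B libraries; it is 1 base from AGTCGCTAGT of the same tile, which held 1729, 991 and 1080 there.

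Most barcodes had such a neighbour. Of the 43 kept CMV barcodes, 41 were 1 base from another barcode of the table, and 10 were 1 base from a barcode with more RNA counts. The largest such neighbour was CTGCATGATC, which held 1620364 RNA and 7115 DNA counts over the libraries and is 1 base from CTGCATGATT of CMV tile 9, which held 40470 and 5722. The log2 ratio of CTGCATGATT was 2.87. The other kept barcodes of the same tile were GCGTCTAAAC (2.88), AGAGGCATGG (2.82), AATAACTGTC (2.38) and ATAGGCCGGC (1.32). In tile 2, CGAGTATGGT and CGAGTATGGG differ at 1 base and stood at 3.62 and 3.08. Without the barcodes that have a neighbour richer in RNA, a setting chosen after seeing the data, 20 of 33 CMV barcodes and 5 of 9 CMV tiles were active.

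The motifs searched on both strands were TGACGTCA (the cAMP response element of CREB/ATF factors), TGACTCA (AP-1), GGGNNTTTC (letters of NF-kappaB sites), CCAAT (NF-Y), GGGCGG (the GC box of SP1), CANNTG (the E-box of myogenic and other helix-loop-helix factors) and TATAAA (the TATA box). The GC box was found in CMV tiles 1, 2 and 9, which were the 3 most active tiles, and in no other CMV tile and no scrambled tile. Its 4 places were bases 44 to 49, 58 to 63, 453 to 458 and 472 to 477. Tile 1 held 2 matches, tile 2 held the second of these and tile 9 held the other 2. Of all 240 annotated tiles 10.0% held it. In the 17 tiles of other designs with the GC box and a kept barcode the median log2 ratio was 0.27 and 1 was active, and in the 198 with a kept barcode and no GC box the median was 0.08 and 5 were active.

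The cAMP response element was found at 4 places of the promoter, bases 66 to 73, 119 to 126, 202 to 209 and 388 to 395. Those places lie in 6 of 9 CMV tiles (1, 2, 3, 4, 5 and 8), including tiles 4 and 5 with log2 ratios of 0.73 and 0.63. These 6 tiles were the only ones of the 240 that held it (2.5%). Tile 2 alone held 2 copies. The NF-kappaB letters were found in 7 CMV tiles (2, 3, 5, 6, 7, 8 and 9), against 5.42% of all annotated tiles.

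AP-1 letters stood at bases 355 to 361, in tiles 7 and 8, and in 1.67% of all tiles. CCAAT stood at bases 101 to 105, in tiles 2 and 3, in scrambled copy 1 tile 6 (the capitals above) and in 14.2% of all tiles. The E-box was found in tiles 3, 4 and 9 and in 37.5% of all tiles, and 1 match in tile 9, bases 467 to 472, shares its last base with a GC box. TATAAA was in no CMV or scrambled tile and in 7.5% of all tiles. A match describes letters only, and neighbouring tiles share their matches where they overlap. Whether any motif bears on activity was not tested.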

How the data were processed

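Reporter RNA and vector DNA were amplified by PCR and sequenced on an Illumina instrument, and the authors deposited raw read counts per barcode, counted with their own scripts. How mismatched reads were treated is not given in the sources used here, no molecular identifiers are named, and so the precision given by depth covers counting error only. Groups and the letters A and B come from the sample titles. The RNA-seq and Hi-C files of the series were not used. The members and lists were chosen with earlier results of these data known.

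A barcode was kept where 3 or more DNA libraries held 10 or more of its counts, and libraries were scaled by the median count of kept barcodes with at least 10 counts. RNA was compared with DNA with edgeR 4.0.16 (quasi-likelihood test, R 4.3.3), with Benjamini-Hochberg adjustment over all kept barcodes or all annotated tiles. Differences between tiles used two-sided exact permutation tests. DESeq2 1.42.0, other scales, filters and left-out libraries were alternatives. Scripts were tested on simulated data. Barcodes named singly are the highest and lowest of each CMV tile, active scrambled barcodes, members lower in RNA and members under the count minimum; others were named after their values were seen. The oligo annotation was held in part, so the scrambled tiles and the tiles of other designs are those of 1196 rows. Without pairing, 5 RNA and 5 DNA libraries entered each fit.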

Additional observations from a re-analysis of the deposited data

Results flagged for a closer look

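A difference between the A and B libraries was found in 3 CMV tiles by a test of the interaction of library type and letter. The log2 ratio of RNA to DNA was higher in B by 1.19 in CMV tile 2, by 0.53 in CMV tile 8 and by 0.61 in CMV tile 9. In alternatives chosen after seeing the data, when any 1 library was left out or when the scale, the count minimum or the tool was changed, these differences ran from 1.10 to 1.28, from 0.44 to 0.64 and from 0.54 to 0.68, and each passed an adjusted p under 0.05 in edgeR or DESeq2. The part of passage, day or handling in them was not tested, since the labels do not say what the letters mark. In none of the 28 groups of 5 libraries (14 tiles, RNA and DNA) did a single library stand apart by Dixon's criterion. That criterion looks for 1 library apart, so it cannot bear on a split of 2 A against 3 B libraries of RNA.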

How the results depend on the processing

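The number of active members moved with the scale and the minimum. With total counts alone 14 CMV barcodes, 0 scrambled barcodes and 3 CMV tiles were active; with a log2 minimum of 0 these were 41, 7 and 9, with 3 scrambled tiles. With no filter but 1 count, 2 scrambled barcodes were active. Without barcodes 1 base from any other barcode, 2 CMV barcodes and 1 scrambled barcode were left, of which 1 and 0 were active, with 1 of 2 CMV tiles active and 2 of 2 possible tile comparisons past the threshold; fewer barcodes were tested by construction. Leaving out 1 library gave 25 to 26 active CMV barcodes, 1 to 2 active scrambled barcodes and 13 to 14 of 17 tile comparisons. The difference of tile 3 from tile 4 turned to -0.69 with the median over barcodes of each library's levels, where RNA and DNA medians can come from different barcodes. Same-numbered RNA and DNA libraries did not deviate together (correlations of -0.08 to 0.07 over barcodes), and 1 of 4 RNA libraries matched its own number best. Barcode levels thus gave no sign of pairing by number. A pairing in handling that does not move barcode levels would not show in this check. With the replicate block 25 CMV barcodes, 1 scrambled barcode, 5 CMV tiles and 0 scrambled tiles were active. No call of a named tile or barcode changed with it. Depth limits the values of barcodes with few counts, such as ACCCTTACGT.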
